A study of Mus musculus with 4 samples.

Results

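The core planar cell polarity genes examined here were 10 named genes of the pathway, Vangl1, Vangl2, Celsr1, Celsr2, Celsr3, Fzd3, Fzd6, Scrib, Ptk7 and Prickle1. They were listed by name, and all 10 were found among the 28765 genes of the expression table by matching Ensembl identifiers to mouse symbols. RNA-seq libraries were made from CD-1 mouse embryos on embryonic day 9.5 (E9.5), with 1 library each of NTD brain, control brain, NTD spine and control spine. The NTD embryos, which showed neural tube defects, came from parents kept for more than 8 weeks on a diet low in folate and from mothers injected on E7.5 with 1.5 mg/kg methotrexate (MTX), a folate antagonist. The labels attach the same diet and injection text to the controls, so which of these the control mothers received is not known from them. The sources used here do not say how many embryos went into a library or where brain and spine were cut.

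Planar cell polarity is the coordinated orientation of cells within the plane of an epithelium. In the core pathway, Celsr cadherins bridge neighbouring cells, Frizzled receptors with Dishevelled gather on one side of each cell, and Vangl proteins with Prickle gather on the opposite side. In the mouse neural plate the pathway drives convergent extension, the narrowing and lengthening of the midline, and its loss can leave the neural tube open along most of the body axis. Mouse mutants of Vangl2, Celsr1, Scrib and Ptk7 are known for this defect, and so are compound mutants of Fzd3 and Fzd6.

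The library totals behind the deposited FPKM, a read density per gene length and library total, lay between 16272101 and 16911677 reads. A fold below compares the reads recovered for a gene, each divided by its library total, and stands with a 95% exact interval that covers counting error only. With 1 library a group, no difference within a tissue has a replicate check. NTD libraries held less early neuron RNA: the summed level of 12 early neuron markers was 110.2 FPKM in NTD brain against 173.1 FPKM in control brain; in spine it was 55.8 FPKM in the NTD library against 107.2 FPKM in the control library. Of these markers 12 of 12 were lower in NTD brain and 11 of 12 in NTD spine, and 8 of 8 neural progenitor markers were lower in both tissues. NTD brain also held more of the 6 heart markers (120.7 FPKM against 28.7 FPKM in control brain, 6 of 6 higher) and of the 6 trunk Hox markers (9.60 FPKM against 0.173 FPKM, 6 of 6 higher), with Hoxb7 and Hoxb8 at 0 in control brain. The summed level of somite markers was higher in NTD brain too, with 21.96 FPKM against 12.96 FPKM in control brain (5 of 6 higher). The interval lay above 1 for Meox1 (2.66 to 3.99) and Tcf15 (1.25 to 3.81) and below 1 for Pax3 (0.794 to 0.996). For Tbx6, Myf5 and Uncx it contained 1. In spine the direction was the other for heart markers, with 290.2 FPKM in NTD spine against 432.6 FPKM in control spine (6 of 6 lower). Erythroid markers summed to 3635 FPKM in NTD spine against 6970 FPKM in control spine (6 of 6 lower). Endoderm and yolk sac markers summed to 40.2 FPKM in NTD spine against 119.2 FPKM in control spine (4 of 6 lower). The lower ones were Afp, Apoa1, Ttr and Apoa2. Sox17 and Foxa2 were slightly higher in NTD spine, with intervals that contained 1 (0.925 to 1.49 and 0.814 to 1.32). The part of these marker differences in the values of the polarity genes was not tested, and in bulk tissue fewer cells of a type and less RNA per cell cannot be told apart. The brain libraries held more of the 6 forebrain and midbrain markers, with 67.1 FPKM in NTD brain against 5.82 FPKM in NTD spine, and 75.3 FPKM in control brain against 11.4 FPKM in control spine. Trunk Hox markers summed to 132.7 FPKM in NTD spine and 126.4 FPKM in control spine.

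The members spanned a wide range of levels. Scrib, a junctional scaffold protein that binds Vangl2, had 33.6 FPKM in NTD brain, 35.2 in control brain, 33 in NTD spine and 35.2 in control spine. Ptk7, a transmembrane pseudokinase that acts with Vangl2, had 28.0 FPKM in NTD brain, 31.7 in control brain, 46.6 in NTD spine and 44.5 in control spine. These were the highest members in every library and together made up between 45.7% and 54.5% of the FPKM summed over the 10 genes. Scrib led in both brain libraries and Ptk7 in both spine libraries, and their counting intervals did not overlap in any of the 4 libraries. That sum was 129.1 FPKM in NTD brain, against 146.3 FPKM in control brain, and it was 146.1 FPKM in NTD spine against 146.3 FPKM in control spine.

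**Figure D1:**
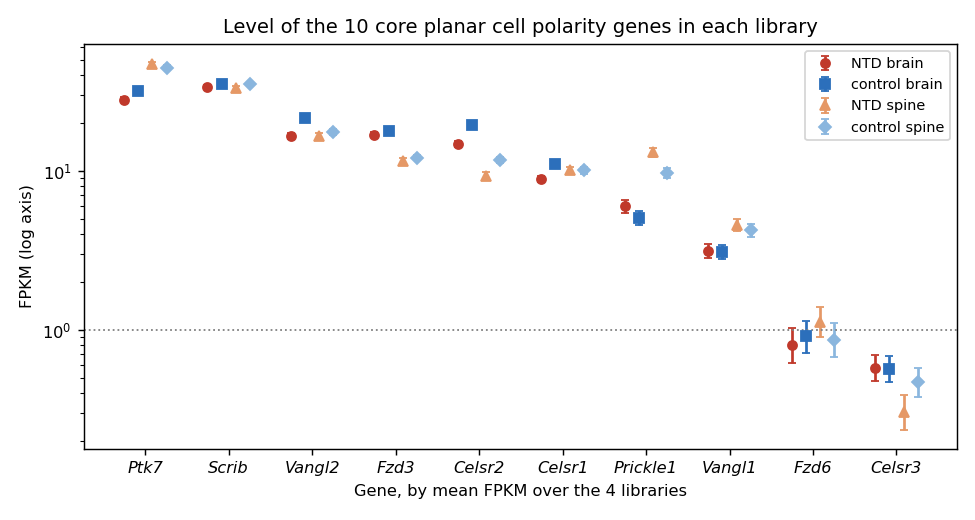
FPKM (log axis) of each member in each library, ordered by the mean over the 4 libraries, with 95% counting intervals; the dotted line marks 1 FPKM. Levels run between Ptk7 at 46.6 FPKM in NTD spine and Celsr3 at 0.305 FPKM in NTD spine, and Fzd6 and Celsr3 stand apart at the low end.

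Vangl2, Fzd3, Celsr2, Celsr1 and Prickle1 formed a middle group between 5.08 and 21.6 FPKM. In control brain the order was Vangl2, Celsr2, Fzd3, Celsr1 and Prickle1, with no overlap of neighbouring counting intervals. In NTD brain the intervals of Fzd3 and Vangl2 overlapped, in control spine those of Fzd3 and Celsr2 and of Celsr1 and Prickle1 did, and in NTD spine those of Celsr1 and Celsr2 did. Fzd3 had 16.9 FPKM in NTD brain, 17.8 in control brain, 11.5 in NTD spine and 12.1 in control spine. Vangl1 followed at 3.15 FPKM in NTD brain, 3.08 in control brain, 4.54 in NTD spine and 4.22 in control spine. Fzd6, a Frizzled receptor best known for hair patterning, and Celsr3, a cadherin of axon guidance, were the lowest members. Fzd6 had 0.807 FPKM in NTD brain, 0.908 in control brain, 1.13 in NTD spine and 0.867 in control spine. Celsr3 had 0.574 FPKM in NTD brain, 0.569 in control brain, 0.305 in NTD spine and 0.469 in control spine. Their means of 0.927 and 0.479 FPKM lay under the 1 FPKM needed for the comparison across genes, which 8 of the 10 members passed and 12940 genes in all.

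Paralogues were compared within each library per exon length. Vangl2 exceeded Vangl1, its close paralogue, 5.26-fold in NTD brain (4.71 to 5.9) and 7.01-fold in control brain (6.28 to 7.83). In spine the excess was smaller, at 3.63-fold in NTD spine (3.3 to 4.0) and 4.16-fold in control spine (3.76 to 4.6). Fzd3, which also guides axons, exceeded Fzd6 20.9-fold in NTD brain (an interval of 16.3 to 27.2) and 19.6-fold in control brain (15.6 to 25.0), against 10.2-fold in NTD spine (8.29 to 12.8) and 13.9-fold in control spine (10.9 to 18.0). Fzd3 was not the highest Frizzled gene measured: Fzd2, another receptor of the family, had 43.97 FPKM in NTD brain, 50.45 in control brain, 57 in NTD spine and 57.75 in control spine, and Fzd7 had 30.4 FPKM in NTD brain, 34.1 in control brain, 42.3 in NTD spine and 43.2 in control spine.

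The balance of Celsr1 and Celsr2 also differed between tissues by these intervals. Celsr2 exceeded Celsr1 1.66-fold in NTD brain (1.56 to 1.76) and 1.75-fold in control brain (1.66 to 1.85). In control spine the excess was 1.16-fold (1.09 to 1.24), and in NTD spine the ratio was 0.923 (0.864 to 0.986), the one library in which Celsr1 was the higher of the pair, though the intervals of their levels overlapped there. Celsr3 stayed far below both, with Celsr1 between 15.5-fold (NTD brain) and 33.1-fold (NTD spine) above it.

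Positions refer to GRCm38 (mm10). Of the 10 genes, 4 lie on chromosome 15, though far apart: Celsr1 (ENSMUSG00000016028, 85898929 to 86033777), Fzd6 (ENSMUSG00000022297, 39006034 to 39038188), Scrib (ENSMUSG00000022568, 76047158 to 76069784) and Prickle1 (ENSMUSG00000036158, 93499114 to 93595891). Chromosome 3 holds Vangl1 (ENSMUSG00000027860, 102153583 to 102204693) and Celsr2 (ENSMUSG00000068740, 108390851 to 108415552). Vangl2 (ENSMUSG00000026556) lies on chromosome 1 at 172000960 to 172028444, and Ptk7 (ENSMUSG00000023972) on chromosome 17 at 46564471 to 46629504. Fzd3 (ENSMUSG00000007989) lies on chromosome 14 at 65192449 to 65262463, and Celsr3 (ENSMUSG00000023473) on chromosome 9 at 108826320 to 108852969. Their total exon sequence is long, with a median union length of 7073 bases against 4486 bases for the protein-coding genes compared, and 9 of the 10 genes lie above that value. They are also rich in G and C, with a median of 55.5% in the longest transcript against about 50% for those genes, and 7 of the 10 lie above that value. Exons of other annotated genes overlapped 8 bases of Vangl1 (the antisense Gm16160), 65 bases of Celsr3 (the miRNA gene Gm23156) and 152 bases, or 3.15%, of Fzd6 (Gm26704, on the opposite strand). Gm23156 lies on the same strand as Celsr3, so strand does not separate their reads. For Vangl1 and Fzd6 the strand setting of the counting, which is unknown here, decides whether reads in the shared bases were told apart.

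The first comparison set NTD brain against control brain. Here and below, counts and medians over the 10 members include Fzd6 and Celsr3, which lie outside the compared genes that give the shares. Most members were slightly lower in NTD brain: 7 of 10 had a log2 ratio of (FPKM + 1) below 0, with a median of -0.08, where 56.4% of all compared genes were below 0 with a median of -0.03. None reached 2-fold on the scale of FPKM + 1, a threshold that 0.804% of the 12940 compared genes passed upwards and 0.781% downwards. The counting interval lay below 1 for 6 members, against 25.7% of compared genes, and above 1 for Prickle1 alone, against 16.1%. The interval narrows with reads, and the 6 were the 6 members with at least 1000 reads over both libraries. At that depth the interval lay below 1 for 30.8% of genes and above 1 for 22.0%.

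The largest differences in brain were those of Celsr2, Vangl2 and Celsr1. Celsr2, a cadherin with roles in neuronal and ciliary polarity, stood at 14.7 FPKM in NTD brain and 19.3 FPKM in control brain, 1.31-fold lower (1.25 to 1.38). Vangl2, the gene of the loop-tail mouse, stood at 16.57 FPKM in NTD brain and 21.6 FPKM in control brain, 1.303-fold lower (1.23 to 1.38). Celsr1, the gene of the crash mouse, stood at 8.88 FPKM in NTD brain and 11.02 FPKM in control brain, 1.24-fold lower (1.16 to 1.33). Control brain was the highest of the 4 libraries for each of these 3 genes. Among all compared genes their log2 ratios ranked at the 7.02 (Celsr2), 7.45 (Vangl2) and 12.2 (Celsr1) percentile, so ratios as low were not rare in this pair of libraries.

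Smaller differences in the same direction were seen for 3 members. Ptk7 was 1.13-fold lower in NTD brain (1.07 to 1.19), Fzd3 1.06-fold lower (1.01 to 1.11) and Scrib 1.05-fold lower (1.002 to 1.098). Prickle1, the cytoplasmic partner of Vangl2, went the other way, at 5.995 FPKM in NTD brain and 5.08 FPKM in control brain, 1.18-fold higher (1.03 to 1.36). The intervals of Vangl1 (0.882 to 1.18), Celsr3 (0.772 to 1.32) and Fzd6 (0.625 to 1.26) for NTD brain over control brain contained 1, so a difference was not detectable at this depth. Celsr3 rested on 114 reads in NTD brain against 116 in control brain, and Fzd6 on 64 against 74 reads in the same libraries.

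**Figure D2:**
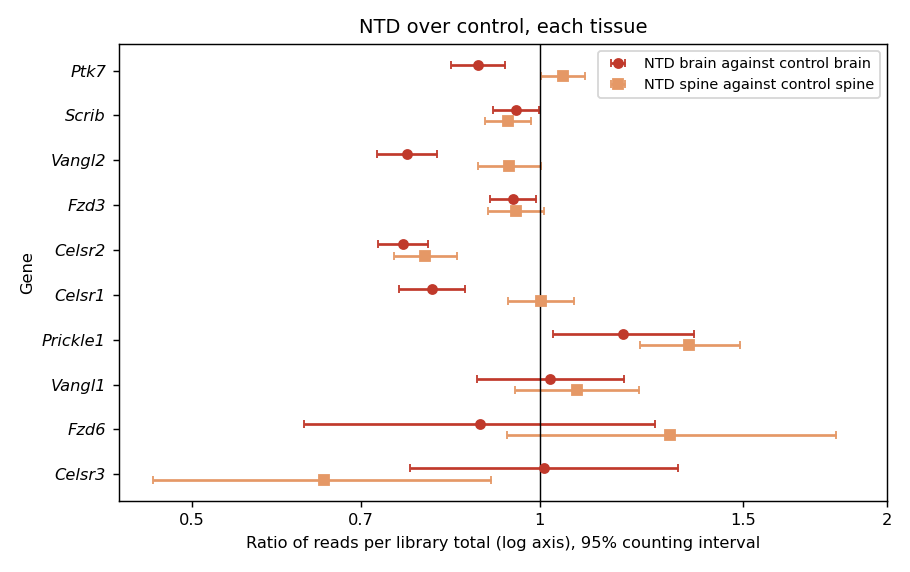
Ratio of reads per library total, NTD over control (log axis), for each member in brain (circles, above) and spine (squares, below), with 95% counting intervals. Celsr2 lies below 1 in both tissues at 0.762 and 0.796, Prickle1 above 1 in both at 1.18 and 1.35, and Vangl2 and Celsr1 lie well below 1 in brain only on these intervals, at 0.767 and 0.806.

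In spine the members were split evenly between NTD and control libraries. The log2 ratio was above 0 for 5 members and below 0 for 5, with a median of -0.03, where 58.0% of all compared genes lay below 0 with a median of -0.04. None reached 2-fold on the scale of FPKM + 1, a threshold that 0.649% of compared genes passed upwards and 0.68% downwards. The counting interval lay above 1 for Prickle1 and Ptk7, against 17.2% of compared genes, and below 1 for Celsr2, Celsr3 and Scrib, against 26.6%. Of the 8 members with at least 1000 reads over both spine libraries, the interval lay above 1 for 2 and below 1 for 2, where it did so for 26.1% and 28.6% of genes at that depth.

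Prickle1 stood at 13.1 FPKM in NTD spine and 9.70 FPKM in control spine, 1.35-fold higher (1.22 to 1.49), at the 97.2 percentile of all compared genes. Celsr2 stood at 9.31 FPKM in NTD spine and 11.7 FPKM in control spine, 1.26-fold lower (1.18 to 1.34), at the 12.4 percentile. Besides these, Scrib was the member whose counting intervals left out 1 in the same direction in both tissues, at 1.07-fold lower in NTD spine (1.02 to 1.12). The log2 ratios of Scrib ranked at the 42.9 percentile in brain and the 40.1 percentile in spine, near the middle of all compared genes. Ptk7 was 1.05-fold higher in NTD spine (1.002 to 1.094), opposite to brain.

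Celsr3 was 1.54-fold lower in NTD spine (1.10 to 2.16), on 61 reads in NTD spine and 92 in control spine, the widest interval among the members called in spine. Fzd6, with 90 and 68 reads in the same libraries, was 1.297-fold higher with an interval that contained 1 (0.936 to 1.80). Vangl2 (16.50 FPKM in NTD spine and 17.5 FPKM in control spine) and Celsr1 (10.09 and 10.06 FPKM) were close between the spine libraries. Their ratios of NTD spine over control spine were 0.941 (0.884 to 1.003) and 1.003 (0.939 to 1.07). Whether the ratios of Vangl2 and Celsr1 differed between brain and spine was not tested, since such a fit leaves no residual degree of freedom.

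The NTD libraries of both tissues were then tested together, with tissue as a block, by limma on log2(FPKM + 1) with Benjamini-Hochberg adjustment over 12940 genes. This fit has 1 residual degree of freedom a gene. Its error combines the disagreement of a gene between brain and spine with a variance trend over the genes tested. That trend carries 3.41 prior degrees of freedom. None of the 8 members tested passed an adjusted p of 0.05, and 0.147% of all genes did (0.0773% higher and 0.0696% lower in NTD, 19 genes in all). On simulated data the adjusted calls of this test included more unchanged genes than its threshold implies. The simulated counts had the same relative spread beyond counting error for every gene, and changes of equal fold in both tissues. How far they match these libraries was not tested. At an unadjusted p under 0.05 there were 2 members, Celsr2 and Prickle1, and 21.9% of all genes. Celsr2 had a log2 difference of -0.34 (SE 0.06, limma adjusted p = 0.117, between 0.0673 and 0.422 over the alternatives) and was lower in 2 of 2 tissues. Prickle1 had a log2 difference of 0.30 (SE 0.08, limma adjusted p = 0.160, between 0.111 and 0.431 over the alternatives) and was higher in 2 of 2 tissues. Vangl2 had a log2 difference of -0.22 (SE 0.09, limma adjusted p = 0.239, between 0.174 and 0.520) and was lower in 2 of 2 tissues. For the other 5 members tested the log2 differences lay between -0.14 (Celsr1) and 0.06 (Vangl1), with limma adjusted p between 0.424 (Scrib) and 0.749 (Vangl1).

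Log2 ratios of NTD over control went down with the GC content of the transcript across all compared genes, with a Spearman correlation of -0.336 in brain and -0.359 in spine (12927 genes with a known transcript, which share libraries and are not replicates). Subtracting the median ratio of genes of like GC content and exon length left 6 members below 0 and 4 above in brain, with a median of -0.04. The adjusted log2 ratios in brain were -0.29 for Vangl2 (-0.36 before), -0.25 for Celsr2 (-0.37 before) and -0.16 for Celsr1 (-0.28 before). Ptk7 was at -0.01 after adjustment and -0.17 before, and Scrib changed sign, at 0.08 after and -0.07 before. In spine the adjusted log2 ratios were 0.50 for Prickle1 (0.40 before), -0.27 for Celsr2 (-0.30 before) and 0.21 for Ptk7 (0.06 before), while Scrib changed sign to 0.03. The part of GC content in these ratios was not tested further.

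**Figure D3:**
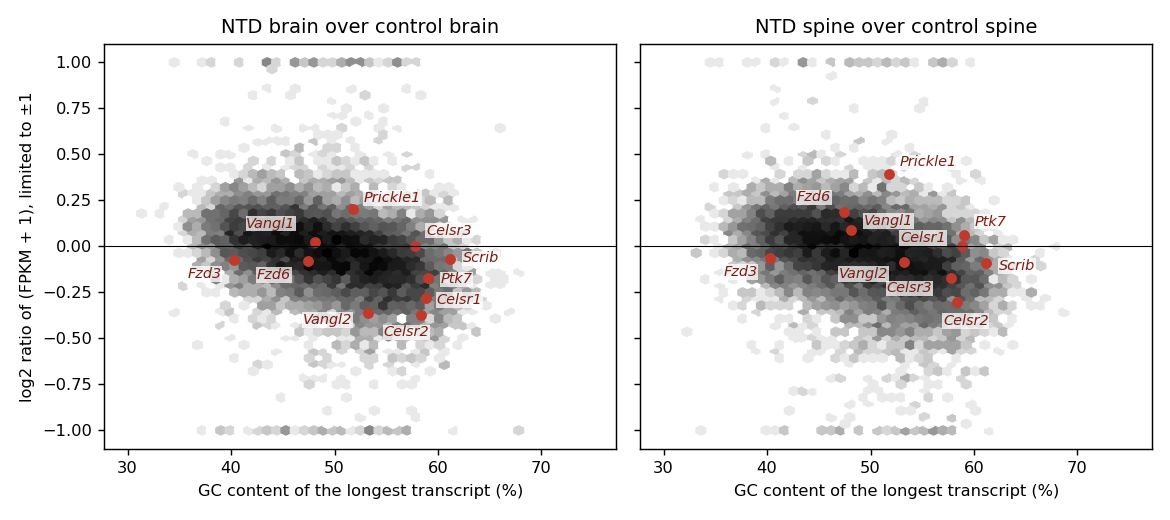
Log2 ratio of (FPKM + 1), NTD over control, against the GC content (%) of each gene's longest transcript, in brain (left) and spine (right); grey cells show all compared genes, darker where there are more, and red points the 10 members; ratios beyond 1 in either direction are drawn at 1. The cloud slopes down with GC content (Spearman correlations of -0.336 and -0.359); in brain Vangl2 and Celsr2 lie at its lower side and in both tissues Prickle1 lies at its upper side.

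The highest folds among the members were those between brain and spine. Celsr2 and Fzd3 were higher in brain, and Prickle1, Ptk7 and Vangl1 were lower in brain, in NTD and control libraries alike by their counting intervals. Prickle1 varied most of all members over the 4 libraries, 2.58-fold between the lowest and the highest, and Scrib least, 1.07-fold. Between NTD brain and NTD spine the counting interval lay above 1 for 3 members (Celsr3 among them) and below 1 for 5 (Fzd6 among them), against 21.2% and 22.3% of compared genes. At 1000 reads or more over both libraries it lay above 1 for 2 and below 1 for 3 of 7 members, against 25.5% and 27.5% of genes. Between control brain and control spine it lay above 1 for 4 members and below 1 for 3, against 20.0% and 19.2% of compared genes, and at that depth above 1 for 4 and below 1 for 2 of 7 members, against 24.1% and 19.8%. With condition as a block, limma called 4 of the 8 members tested, where it called 6.67% of 12940 genes, 2.58% higher and 4.09% lower in brain. On simulated data only the NTD against control term of the limma fit was assessed. Its adjusted calls included more unchanged genes than the threshold implies. The brain against spine term was not assessed in this way, which limits these calls.

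Celsr2 was 1.58-fold higher in NTD brain than in NTD spine (1.49 to 1.68) and 1.65-fold higher in control brain than in control spine (1.57 to 1.74). Its log2 difference of 0.64 (SE 0.06) passed with a limma adjusted p of 0.0118. Fzd3 was 1.46-fold higher in NTD brain than in NTD spine (1.39 to 1.54) and 1.47-fold higher in control brain than in control spine (1.40 to 1.55), with a log2 difference of 0.52 (SE 0.06, limma adjusted p = 0.0174).

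Prickle1 was 2.18-fold lower in NTD brain than in NTD spine (1.95 to 2.45). On the scale of FPKM + 1 its log2 ratio was -1.01, and it was the 1 member past 2-fold in any comparison. On that scale 2.13% of compared genes passed 2-fold in that direction. With a pseudocount of 5 FPKM its log2 ratio was -0.718, and the number of members past 2-fold was 0. The control libraries differed by 1.91-fold in the same direction (1.68 to 2.17), with a log2 ratio of -0.82 on the scale of FPKM + 1. There 2.38% of compared genes passed 2-fold in that direction. Over both conditions its log2 difference was -0.91 (SE 0.08, limma adjusted p = 0.0104). Ptk7 was 1.66-fold lower in NTD brain than in NTD spine (1.58 to 1.75) and 1.41-fold lower in the control pair (1.34 to 1.48), with a log2 difference of -0.60 (SE 0.08, limma adjusted p = 0.0243). All 4 calls were lost without the filter on low values, where limma called no gene among 28765, with 3722 genes at an unadjusted p under 0.05, and the 4 adjusted p lay between 0.197 and 0.253. The call of Ptk7 was also lost without a trend in the variance prior, and the cause was not tested.

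Vangl1 was 1.44-fold lower in NTD brain than in NTD spine (1.26 to 1.65) and 1.37-fold lower in the control pair (1.19 to 1.57), but its log2 difference of -0.39 (SE 0.09) did not pass (limma adjusted p = 0.0892). Vangl2 was 1.23-fold higher in control brain than in control spine (1.16 to 1.31), whereas NTD brain and NTD spine were at 16.57 and 16.50 FPKM, with a ratio of 1.005 (0.942 to 1.07). Celsr1 was 1.14-fold lower in NTD brain than in NTD spine (1.06 to 1.22) and 1.10-fold higher in control brain than in control spine (1.03 to 1.17). Celsr3 was 1.88-fold higher in NTD brain than in NTD spine (1.37 to 2.62), while the interval in control libraries contained 1 (0.915 to 1.61). Fzd6 was 1.395-fold lower in NTD brain than in NTD spine (1.001 to 1.953), and its interval in control libraries contained 1 (0.743 to 1.48). Scrib, the member with the steadiest level, had a brain to spine ratio of 1.02 in NTD libraries (0.971 to 1.07) and 1.001 in control libraries (0.956 to 1.05).

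**Figure D4:**
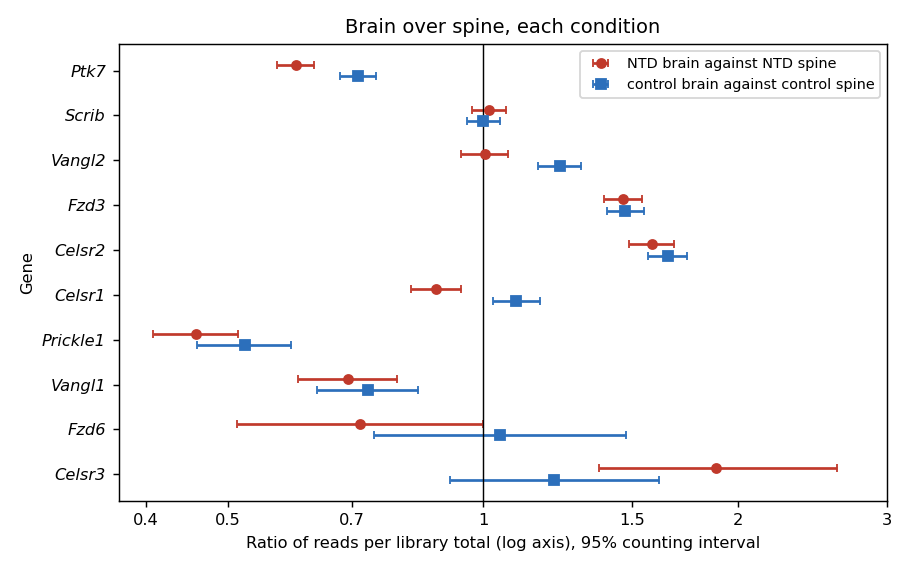
Ratio of reads per library total, brain over spine (log axis), for each member in NTD libraries (circles, above) and control libraries (squares, below), with 95% counting intervals. Fzd3 and Celsr2 lie between 1.46 and 1.65, Prickle1 at 0.458 and 0.523, and the Vangl2 ratio is 1.005 in NTD and 1.23 in control libraries.

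The promoters of 3 of the members called between tissues are shown because Celsr2 was higher in brain and Prickle1 and Ptk7 lower. Each is the 250 bases before the start site in RefSeq (GRCm38.p6), written 5′ to 3′ on the minus strand, on which all 3 genes lie. They are Celsr2 at chr3:108415580-108415829, Prickle1 (the upstream of its start sites) at chr15:93595903-93596152 and Ptk7 at chr17:46629505-46629754. Capitals mark GC boxes, the letters GGGCGG or their reverse complement CCGCCC.
Celsr2: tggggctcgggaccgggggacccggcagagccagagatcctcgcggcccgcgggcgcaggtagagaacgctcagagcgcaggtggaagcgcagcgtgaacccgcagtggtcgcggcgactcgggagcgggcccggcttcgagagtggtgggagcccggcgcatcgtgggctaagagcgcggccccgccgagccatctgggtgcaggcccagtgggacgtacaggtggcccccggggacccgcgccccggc
Prickle1: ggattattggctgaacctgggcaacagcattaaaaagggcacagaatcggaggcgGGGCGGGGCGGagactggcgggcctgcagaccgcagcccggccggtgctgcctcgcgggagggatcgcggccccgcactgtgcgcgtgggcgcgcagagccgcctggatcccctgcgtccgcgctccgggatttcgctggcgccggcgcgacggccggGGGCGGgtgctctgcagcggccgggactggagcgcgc
Ptk7: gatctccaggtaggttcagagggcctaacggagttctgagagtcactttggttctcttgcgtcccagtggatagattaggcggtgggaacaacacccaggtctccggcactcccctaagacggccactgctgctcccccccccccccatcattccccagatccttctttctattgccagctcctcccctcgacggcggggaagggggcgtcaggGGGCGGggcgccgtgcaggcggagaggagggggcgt

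The Celsr2 window held no GC box in these letters, the Prickle1 window 3 (overlapping by 1 base at one place) and the Ptk7 window 1. Of all 32851 RefSeq promoter windows of this length, 32.7% held at least 1. The Prickle1 window also held a CCAAT box (CCAAT on either strand), as 33.8% of all windows did, and none of the 3 held TATAAA on either strand, which 12.4% of all windows did. All 3 windows were rich in G and C, at 75.2% for Celsr2, 74.0% for Prickle1 and 64.0% for Ptk7 against a median of 52.4%. They held 32, 34 and 14 CpG dinucleotides, against a median of 6. These matches describe the letters and say nothing of factors bound there. RefSeq windows were matched for 5 of the 10 members.

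The genes whose profile over the 4 libraries came nearest to that of Vangl2, by Euclidean distance of mean-centred log2(FPKM + 1) among 7221 protein-coding genes, were Megf6 (distance 0.0369), Unc119b (0.0401) and Dolpp1 (0.0421). Megf6 stood at 10.1 FPKM in NTD brain, 12.9 in control brain, 9.67 in NTD spine and 10.3 in control spine. For Prickle1, the member with the widest spread, they were F11r (0.0873), which encodes a junctional adhesion molecule, Dusp4 (0.130), which encodes a phosphatase of MAP kinases, and Slc9a3r1 (0.179), which encodes a PDZ scaffold of the cell cortex. F11r stood at 10.3 FPKM in NTD brain, 8.50 in control brain, 20.2 in NTD spine and 16.4 in control spine. With 4 libraries such likeness is only a description. The summed level of 8 surface ectoderm markers was 118.7 FPKM in NTD brain against 105.0 FPKM in control brain; in spine it was 171.4 FPKM in the NTD library against 180.3 FPKM in the control library, with no marker at 0 (5 of 8 higher in NTD brain and 3 of 8 in NTD spine). Its part in the Prickle1 values was not tested.

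The rest of the pathway was followed in 5 lists of 59 genes, of which 56 were compared. Like the members, no listed gene reached 2-fold on the scale of FPKM + 1 or passed limma for NTD against control. In brain 38 of 56 were lower and 18 higher in NTD (median log2 ratio -0.10), and in spine 34 were lower and 22 higher (median -0.03). Of all compared genes 56.4% were lower in NTD brain (median -0.03) and 58.0% in NTD spine (median -0.04), and the counts and medians of each list below stand beside these. For brain against spine limma called 11 of the 56, 4 higher and 7 lower in brain, where it called 2.58% of all compared genes higher and 4.09% lower.

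The other core genes comprised the Dishevelled genes Dvl1, Dvl2 and Dvl3, which relay Frizzled signals, Prickle2, Prickle3 and Ankrd6, and the receptors Fzd1, Fzd2 and Fzd7. In NTD brain 8 of 9 were lower (median -0.10) and in NTD spine 9 of 9 (median -0.05, close to the -0.04 of all compared genes). In spine the counting interval left out 1 for Dvl2 alone. Dvl2 was 1.08-fold lower in NTD brain (1.0 to 1.16) and 1.16-fold lower in NTD spine (1.08 to 1.25), while Dvl3 was close to even in both, with ratios of 1.04 (0.984 to 1.11) and 0.990 (0.930 to 1.05). Prickle3 was low, at 0.756 FPKM in NTD brain and 0.917 FPKM in control brain, and Prickle2 likewise, at 0.985 and 1.19 FPKM. Prickle1 was thus the main Prickle gene measured in each library. Fzd7 was lower in brain, with a log2 difference from spine of -0.40 (limma adjusted p = 0.0360).

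Among 12 ligands and co-receptors, 7 were lower in NTD brain (median -0.10) and 7 in NTD spine (median -0.09). Wnt7b, a Wnt ligand of the forebrain, had the lowest log2 ratio of the list by the mean of both tissues, at 5.26 FPKM in NTD brain and 7.78 FPKM in control brain, 1.48-fold lower (1.31 to 1.68), and at 0.947 FPKM in NTD spine and 2.32 FPKM in control spine, 2.45-fold lower (1.87 to 3.24). Sfrp2, a secreted Wnt antagonist, was 1.34-fold lower in NTD brain (1.25 to 1.44) and 1.45-fold lower in NTD spine (1.32 to 1.58). Wnt5a, the ligand best tied to vertebrate planar polarity, was nearly level, with NTD over control ratios of 1.06 in brain (0.973 to 1.15) and 1.01 in spine (0.939 to 1.08). Wnt11, another ligand of convergent extension, was 2.69-fold higher in NTD brain (1.38 to 5.54) at a low level of 0.499 FPKM, against 0.186 FPKM in control brain, and 1.06-fold higher in NTD spine (0.832 to 1.35).

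This list held 6 of the 11 calls between tissues. Wnt7b, Sfrp2, Gpc4 and Sfrp1 were higher in brain, with log2 differences of 1.54, 0.64, 0.64 and 0.45, and Wnt5a and Wnt11 (the lowest of the 6 in level) were lower in brain, with -0.50 and -1.19 (limma adjusted p between 0.00800 and 0.0243).

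Of 16 effectors compared, 8 were lower and 8 higher in NTD brain (median 0.02), and 7 were lower and 9 higher in NTD spine (median 0.01). Dact1, a Dishevelled-binding protein, was higher in both tissues, with the NTD brain library 1.29-fold above control (1.12 to 1.49) and the NTD spine library 1.29-fold above control (1.16 to 1.45). Grhl3, a transcription factor needed for posterior closure, was 1.56-fold higher in NTD brain (1.09 to 2.24), at 1.79 FPKM against 1.15 FPKM in control brain, with a ratio of 0.999 in spine (0.754 to 1.32). Shroom3, an actin-binding driver of apical constriction, was 1.38-fold lower in NTD brain (1.28 to 1.49) and 1.12-fold higher in NTD spine (1.05 to 1.2). Arhgef19, a guanine nucleotide exchange factor, was 1.61-fold lower in NTD spine (1.25 to 2.09), with a brain ratio of 1.16 (0.917 to 1.47). Between tissues Daam2, a formin (-0.76, limma adjusted p = 0.0171), and Dact1 (-0.65, limma adjusted p = 0.0142) were lower in brain.

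The 14 traffic, turnover and scaffold genes were lower in NTD brain in 10 (median -0.14) and in NTD spine in 8 (median -0.07). Gipc1, an adaptor of endosomal traffic that carries Vangl2, was 1.21-fold lower in NTD brain (1.13 to 1.29) and 1.32-fold lower in NTD spine (1.24 to 1.41). Smurf1, a ubiquitin ligase that targets Prickle1, was 1.23-fold lower in NTD brain (1.11 to 1.35) and 1.13-fold lower in NTD spine (1.03 to 1.24). Mink1, a kinase that acts on Prickle, was 1.13-fold higher in NTD brain (1.04 to 1.22), with a spine ratio of 1.06 (0.974 to 1.14), and Dlg1, a junctional scaffold, was 1.13-fold higher in NTD spine (1.06 to 1.2), with a brain ratio of 1.04 (0.976 to 1.11). Llgl2, a basolateral polarity gene, was the 1 gene of this list called between tissues, lower in brain (-0.65, limma adjusted p = 0.0243).

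The Fat and Dachsous cadherins form a parallel polarity system. All 5 compared genes were lower in NTD brain (median -0.26), and 3 of 5 were lower in NTD spine (median -0.01). Fjx1, the homologue of Drosophila four-jointed, a Golgi kinase of this system, was 1.56-fold lower in NTD brain (1.36 to 1.79) and 1.27-fold lower in NTD spine (1.11 to 1.46). Dchs1 was 1.43-fold lower in NTD brain (1.32 to 1.55), with a spine ratio of 0.981 (0.924 to 1.04), and was lower in brain than in spine (-0.75, limma adjusted p = 0.0411). Fat4 was 1.26-fold lower in NTD brain (1.15 to 1.39) with a spine ratio of 0.994 (0.902 to 1.1), and Fat1 was 1.13-fold lower in NTD brain (1.08 to 1.18) and 1.22-fold higher in NTD spine (1.17 to 1.27).

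**Figure D5:**
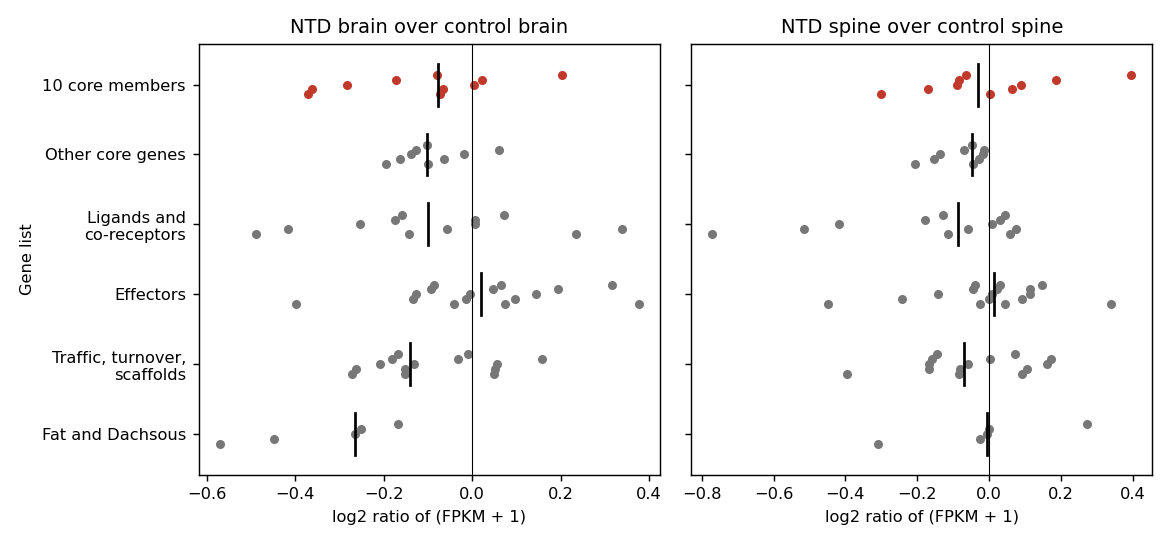
Log2 ratio of (FPKM + 1), NTD over control, in brain (left) and spine (right); each point is 1 gene, red for the 10 members and grey for the compared genes of the 5 pathway lists, and the bar is the median. No point passes 1 in either direction; the brain medians run between -0.26 (Fat and Dachsous) and 0.02 (effectors).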

How the data were processed

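The authors deposited 1 table of FPKM per gene and library. Alignment was by HISAT2 2.0.1 against mm10, per the submitters' processing notes; the sources used here name no counting program, annotation, strand setting or filter. Columns were mapped to groups by sample title. Identifiers were matched to GENCODE M21 (28698 matched, 67 did not). Multiplied by union exon length, FPKM moved in steps of 1 read, which gave library totals and reads; 28298 genes (98.6% of those matched) were whole in all 4 libraries within 0.01 reads.

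Ratios of reads carry exact conditional binomial (Clopper-Pearson) intervals, and levels exact Poisson ones. Log2 ratios used a pseudocount of 1 FPKM, for genes whose mean reached 1 FPKM. The block fits used limma 3.58.1 (R 4.3.3, eBayes with trend) on those values. Only the NTD against control term was tested on simulated data. Other steps used Python 3.11.15. All 10 members are named, with pathway genes past 2-fold or called, or else the 2 highest and 2 lowest of each list. The members and lists were chosen with earlier results of these data known.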

Additional observations from a re-analysis of the deposited data

Results flagged for a closer look

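Ptk7 was flagged because its counting intervals left out 1 in opposite directions in the 2 tissues. Its log2 ratio of (FPKM + 1) was -0.17 in NTD brain against control brain (28.0 and 31.7 FPKM) and 0.06 in NTD spine against control spine (46.6 and 44.5 FPKM). The difference between the tissues was not tested, since each group has 1 library. After adjustment for GC content and length the values were -0.01 and 0.21.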

How the results depend on the processing

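No paired analysis was possible because each group has 1 library. No library could be left out of the block fits, which have 1 residual degree of freedom. The number of members lower in NTD stayed within 1.5 times the reported count under other pseudocounts, other scalings and adjustment for GC content and length. Scaling to the same FPKM sum left 9 members lower in NTD brain, against 7, with Vangl1 (-0.005) and Celsr3 (-0.009) changing sign. In NTD brain against NTD spine that scaling left 7 members lower, against 5, with Vangl2 (-0.097) and Scrib (-0.082) changing sign. In control brain against control spine the adjustment for GC content and length left 5 members lower, against 3. For NTD against control limma called 19 genes, and 32 with a pseudocount of 0.1, 83 with a pseudocount of 5, 119 with a mean of at least 5 FPKM, 81 after rescaling by the median ratio, 39 after adjustment for GC content and length, and 0 without a filter or without a trend (3232 and 2423 genes at an unadjusted p under 0.05); no member was called in any of these. For brain against spine 0 members and 0 genes were called without a filter, and the cause was not tested. Adjustment for GC content and length turned the sign of Scrib (log2 ratios of 0.084 in brain and 0.026 in spine, and 0.05496 in the limma fit for NTD against control) and of the limma differences of Ptk7 (0.1013 for NTD against control) and Celsr1 (0.04575 for brain against spine). The background of genes with at least 1000 reads was chosen after seeing the data. Depth limits Fzd6 and Celsr3, with 61 to 116 reads a library.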
